A study of Mus musculus with 22 samples.

Results

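The sites described here are regions bound by the vitamin D receptor (VDR) in the mouse pre-osteoblastic line MC3T3-E1 that appeared with calcitriol and not under vehicle, and that were found again after the cells had differentiated. Calcitriol, 1,25(OH)2D3, is the hormonal form of vitamin D. The sites were chosen by the VDR calls alone: they are the regions of the undifferentiated calcitriol list, on chromosomes 1 to 19 and X, that overlap no region of the undifferentiated vehicle list and at least 1 region of the differentiated calcitriol list, by 1 bp or more. This rule was met by 442 of 7000 regions, or 6.31%. The other calcitriol-only regions of undifferentiated cells, 5772 in number, had no counterpart in the differentiated list and are called the sites not called again. A further 352 regions were listed under vehicle too and were called again.

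Differentiated cultures had been kept for 15 days with glycerol-2-phosphate and ascorbic acid, and undifferentiated cultures without them. Both states received 100 nM calcitriol or ethanol vehicle for 3 h before chromatin immunoprecipitation sequencing (ChIP-seq), and passages 5 to 12 were used. Matrix was removed from the differentiated cultures by homogenization and a sucrose step that the undifferentiated cultures did not go through, so preparation and state cannot be told apart. Each of the 22 combinations of antibody, state and treatment is represented by 1 list of regions, with no reads or replicate lists. Vehicle lists were used for VDR and for its partner, the retinoid X receptor (RXR); for C/EBPβ, RUNX2 and 5 histone marks the lists are from calcitriol-treated cells, so no effect of calcitriol on them is described. The line is a single clonal osteoblast-lineage model, and no RNA was measured here.

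VDR is a nuclear receptor that, once it has bound calcitriol, pairs with RXR and binds direct repeats of a 6 bp half-site set 3 bp apart, an element named DR3. A typical half-site reads AGGTCA, and the search used here also allowed G at the first base and T at the third. In osteoblasts the receptor acts mostly through distant enhancers and regulates genes of bone matrix, mineral handling and the signals that osteoblasts send to osteoclasts. RUNX2 is the master transcription factor of the osteoblast lineage, and C/EBPβ is a bZIP factor of early mesenchymal cells that also occupies osteoblast enhancers.

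A DR3 match, with at most 1 mismatch over the 12 fixed bases, was present within 200 bp of DNA around the centre of 179 of the 442 sites, or 40.5% (95% interval 35.9 to 45.2). To show what the element looks like where it was found, 8 of the sites are given below as 201 bp regions of the mm9 plus strand, 5′ to 3′, with the best DR3 match in capitals. The first 3 hold a match without mismatch, and the other 5 lie within 50 kb of a start of a gene from the lists described further on and have the best match there with 1 mismatch. In the lines for Lep and Lrp6 the element lies on the minus strand, so that its half-sites read in reverse complement. Each line is named for the gene the site was assigned to.
Sparc site, chr11:55219471-55219671: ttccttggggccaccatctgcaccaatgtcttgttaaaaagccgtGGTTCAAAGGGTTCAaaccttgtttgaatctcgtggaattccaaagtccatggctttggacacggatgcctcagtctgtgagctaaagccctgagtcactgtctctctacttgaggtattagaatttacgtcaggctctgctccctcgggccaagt
Med13l site, chr5:118854488-118854688: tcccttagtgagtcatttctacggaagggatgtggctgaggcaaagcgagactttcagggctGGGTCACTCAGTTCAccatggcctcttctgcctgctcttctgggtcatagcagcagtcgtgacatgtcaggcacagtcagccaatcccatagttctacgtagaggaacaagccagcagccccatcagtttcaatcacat
Gpc6 site, chr14:117345221-117345421: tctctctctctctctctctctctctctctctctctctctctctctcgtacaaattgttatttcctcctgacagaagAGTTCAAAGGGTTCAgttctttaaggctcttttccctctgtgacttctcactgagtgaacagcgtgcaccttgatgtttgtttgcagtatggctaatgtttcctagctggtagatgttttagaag
Actb site, chr5:143671520-143671720: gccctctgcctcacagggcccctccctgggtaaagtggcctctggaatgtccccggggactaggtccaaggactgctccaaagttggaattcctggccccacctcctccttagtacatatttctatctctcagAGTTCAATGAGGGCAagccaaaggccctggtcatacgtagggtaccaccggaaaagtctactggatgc
Mmp13 site, chr9:7262013-7262213: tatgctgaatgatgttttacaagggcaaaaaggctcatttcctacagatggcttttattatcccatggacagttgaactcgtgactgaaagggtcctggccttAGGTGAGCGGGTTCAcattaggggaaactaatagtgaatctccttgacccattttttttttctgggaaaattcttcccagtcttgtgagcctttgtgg
Tgfbr3 site, chr5:107587709-107587909: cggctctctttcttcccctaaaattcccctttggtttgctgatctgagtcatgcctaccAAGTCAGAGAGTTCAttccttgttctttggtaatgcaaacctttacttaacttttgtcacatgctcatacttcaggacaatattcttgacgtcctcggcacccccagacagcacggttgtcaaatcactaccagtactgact
Lep site, chr6:28982136-28982336: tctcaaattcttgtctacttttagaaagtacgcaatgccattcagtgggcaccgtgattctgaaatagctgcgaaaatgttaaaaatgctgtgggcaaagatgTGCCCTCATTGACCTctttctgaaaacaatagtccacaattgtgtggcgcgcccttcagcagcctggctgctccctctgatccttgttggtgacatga
Lrp6 site, chr6:134556783-134556983: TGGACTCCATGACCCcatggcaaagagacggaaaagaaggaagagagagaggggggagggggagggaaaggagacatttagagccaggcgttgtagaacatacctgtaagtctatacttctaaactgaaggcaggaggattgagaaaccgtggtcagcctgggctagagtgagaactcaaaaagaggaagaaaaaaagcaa
The Sparc element, in an intron 3904 bp upstream of one of the gene's annotated starts, repeats the half-site GGTTCA exactly. Sparc encodes osteonectin, a collagen-binding glycoprotein of bone matrix. The Gpc6 element, in an intron of the gene for the heparan sulfate proteoglycan glypican-6, has the same spacer and second half-site as that of Sparc. The Med13l element lies 156140 bp upstream of the gene, which encodes a subunit of the Mediator kinase module. Of the 5 matches with 1 mismatch, those near Actb, Lep and Lrp6 depart from the consensus at position 13 of the 15, counted from the 5′ end of the element on its own strand.

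The direct repeat was far more frequent at these sites than at the calcitriol-only sites that were not called again, where 829 of 5772 (14.4%; 95% interval 13.5 to 15.3) held a match. The difference was 26.1 percentage points (Newcombe 95% interval 21.6 to 30.9). In windows of the same length placed 2 kb to either side of the 442 sites, 12 of 884 (1.36%; 0.703 to 2.36) held one. Sites that were listed under vehicle too and were called again had a match in 25 of 352 cases (7.10%; 4.65 to 10.3). RXR regions without VDR held a DR3 match in 2.05% of 4303 cases in differentiated cells and 1.53% of 3397 cases in undifferentiated cells, both with calcitriol. Matches without mismatch showed the same order, with 41 of the 442 sites (9.28%; 6.74 to 12.4) against 156 of the sites not called again (2.70%; 2.30 to 3.15). These intervals, and all those that follow, cover the counting of regions only, since each group has 1 list and cultures cannot be compared with each other.

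A 3 bp spacer stood apart from the others. With the same half-sites and the same tolerance, spacers from 0 to 8 bp were searched on both strands. A spacer of 4 bp gave a match in 43 of the 442 sites (9.73%; 7.13 to 12.9), and in 4.50% (3.98 to 5.07) of those not called again, and every spacer from 0 to 2 bp and from 5 to 8 bp gave between 2.49% and 4.30% of the 442 sites. Of the 179 sites with a DR3 match, 7 held a match with the 4 bp spacer too.

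**Figure D1:**
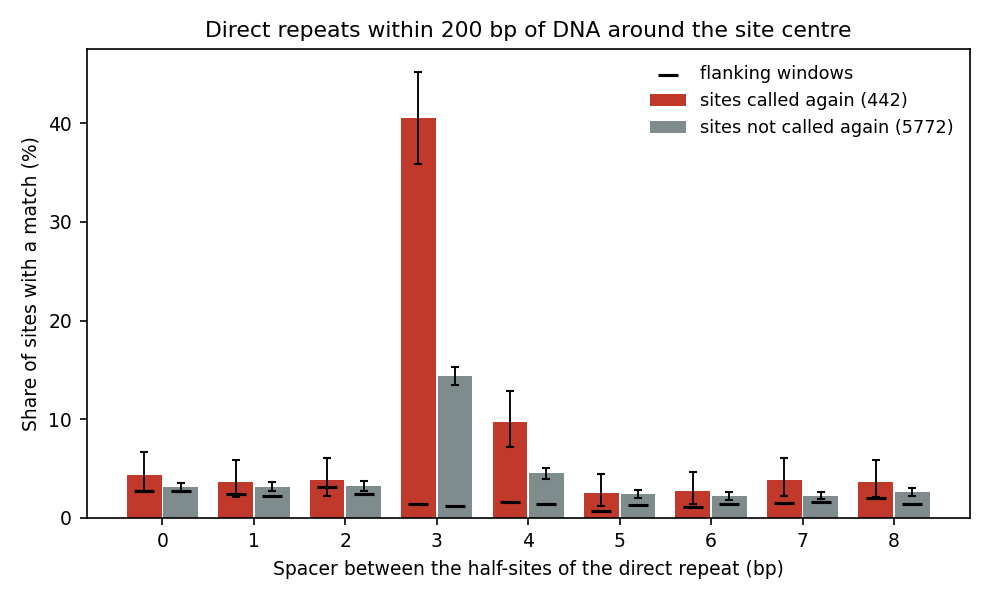
Share of sites (%, vertical axis) with a direct repeat match at each spacer length (bp, horizontal axis), for the 442 sites called again (red) and the 5772 calcitriol-only sites not called again (grey); bars carry exact 95% intervals for counting error, and black dashes give the share of flanking windows. The 3 bp spacer stands out in both sets, at 40.5% of the sites called again and 14.4% of the others.

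The half-sites of the element differed in base use. Of the 179 best matches, the third base of the first half-site was G in 72.1% and T in 26.8%, whereas the third base of the second half-site was T in 73.7% and G in 26.3%. The first half-site thus read most often as AGGTCA or GGGTCA, and the second as AGTTCA, in 50 matches, or GGTTCA, in 36. G at the first of these places together with T at the other was found in 98 of 179 matches (54.7%), against 370 of 829 matches (44.6%) at the sites not called again. The last base of the spacer, which the search left free, was G in 121 of 179 matches (67.6%), against 57.4% of 829 matches at the sites not called again. The mismatch, where there was one, fell in the first half-site in 63 matches and in the second in 75, and position 13 alone took 38 of them. The median distance of the best match from the site's centre was 33 bp in both sets.

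For the other motifs searched, the interval of the difference from the sites not called again included 0. The RUNX motif was TGTGGTT, with C also allowed at the third and at the last base. It was found at 112 of the 442 sites (25.3%; 21.4 to 29.7). The sites not called again had it in 28.4% (27.3 to 29.6), a difference of -3.11 points (-7.12 to 1.30). In flanking windows it was found in 8.48%. The AP-1 motif, TGANTCA, was found at 65 sites (14.7%; 11.5 to 18.4) against 16.1% of the sites not called again (difference -1.37 points, -4.52 to 2.35), and in 5.09% of the flanking windows. A C/EBP motif was found at 81 sites (18.3%; 14.8 to 22.3) and in 16.4% of their flanking windows (14.0 to 19.01), with overlapping intervals, and the difference from the sites not called again was -2.29 points (-5.79 to 1.72). Within the C/EBPβ list of undifferentiated cells the C/EBP motif was at 61 of 231 sites (26.4%), and outside it at 20 of 211 (9.48%). For the sites not called again these shares were 31.2% and 12.0%. Each motif was searched on both strands of the same 200 bp windows without mismatch, and a match is a description of the sequence, not a measured contact.

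RXR was present at most of the sites with calcitriol and at a minority under vehicle. In differentiated cells 396 of the 442 sites (89.6%; 86.4 to 92.3) overlapped an RXR region with calcitriol and 158 (35.7%; 31.3 to 40.4) under vehicle. In undifferentiated cells the counts were 370 (83.7%; 79.9 to 87.0) with calcitriol and 147 (33.3%; 28.9 to 37.9) under vehicle. The RXR lists were not used to choose the sites. The rule does ask for a call of VDR, the partner of RXR, in differentiated cells with calcitriol, and the sites not called again lack that call. In differentiated cells the calcitriol list was itself longer than the vehicle list, with 8126 against 4815 regions, whereas in undifferentiated cells the 2 lists were of similar length, with 7591 regions with calcitriol and 7834 under vehicle.

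The sites not called again carried RXR differently. With calcitriol, 52.5% (51.2 to 53.8) of them overlapped RXR in differentiated cells and 59.4% (58.1 to 60.6) in undifferentiated cells, so the sites called again stood 37.1 points (33.7 to 40.0) and 24.4 points (20.4 to 27.8) higher. Under vehicle the order turned round in undifferentiated cells, where 50.1% of the sites not called again overlapped RXR, a difference of -16.9 points (-21.3 to -12.2). Under vehicle in differentiated cells the share was 31.4%, and the difference of 4.30 points had an interval that includes 0 (-0.192 to 9.03), and it was 5.36 points (0.680 to 10.3) without the sites within 1 kb of a start. RXR with calcitriol but not under vehicle was found at 241 of the 442 sites (54.5%) in differentiated cells and at 226 (51.1%) in undifferentiated cells, against 22.5% and 16.5% of the sites not called again. RXR under vehicle but not with calcitriol was found at 3 of the 442 sites in each state.

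**Figure D2:**
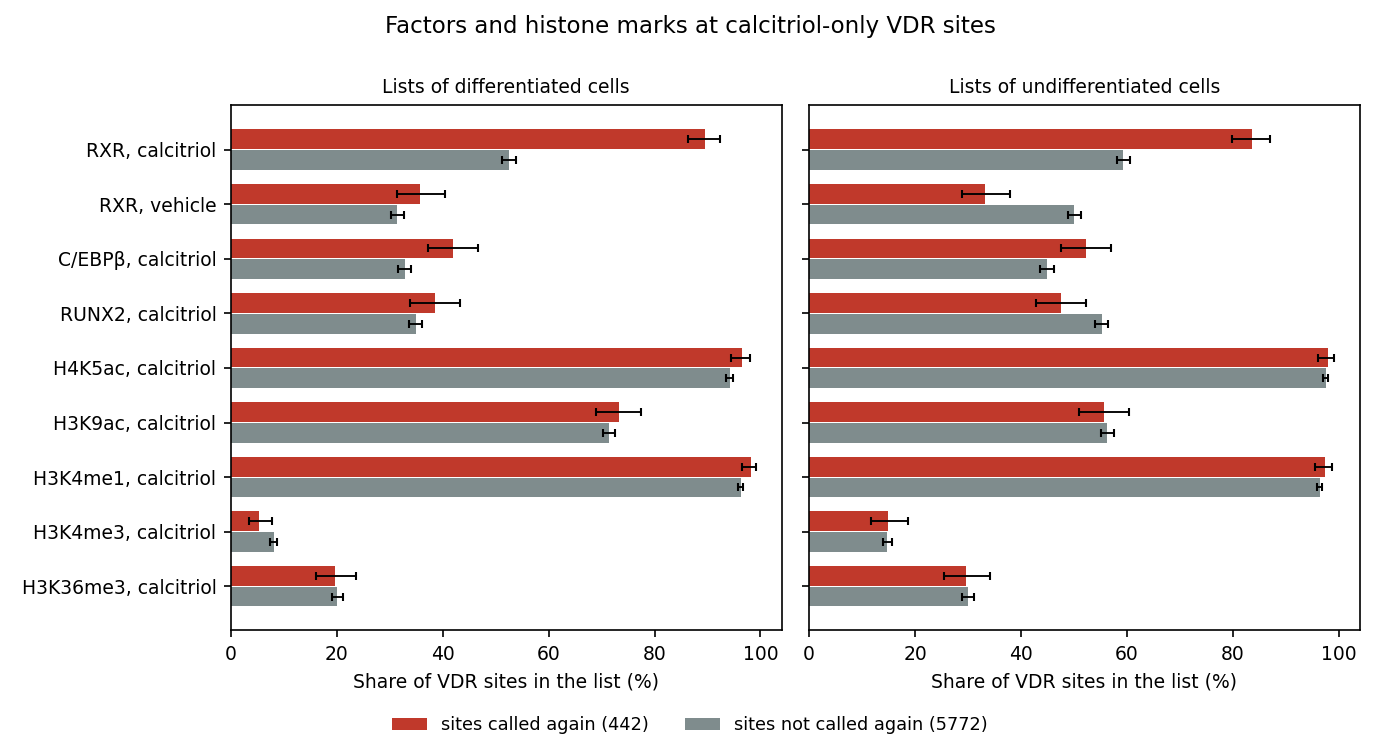
Share of VDR sites (%, horizontal axis) that overlap each list, for the 442 sites called again (red) and the 5772 not called again (grey), with lists of differentiated cells on the left and of undifferentiated cells on the right; whiskers are exact 95% intervals for counting error. RXR with calcitriol is the list in which the sets lie farthest apart, at 89.6% against 52.5% in differentiated cells, while the bars of H4K5ac and H3K4me1 lie above 94% in both sets.

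Across the 4 RXR lists, a pair of patterns accounted for most of the sites. RXR in both calcitriol lists and in neither vehicle list was the most frequent, at 171 sites (38.7%; 34.1 to 43.4), against 306 of 5772 sites not called again (5.30%; 4.74 to 5.91). RXR in all 4 lists came next, at 115 sites (26.0%; 21.99 to 30.4), a share that overlapped the 23.8% (22.7 to 24.9) of the sites not called again. A further 43 sites had RXR in differentiated cells with calcitriol alone. No RXR list held 21 of the sites (4.75%; 2.97 to 7.17), against 26.1% of those not called again.

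The DR3 element was most frequent at the sites of the first of these patterns. A match was present at 102 of the 171 sites with RXR in the calcitriol lists alone (59.6%; 51.9 to 67.1), at 19 of the 115 sites with RXR in all 4 lists (16.5%; 10.3 to 24.6), and at 58 of the remaining 156 sites (37.2%; 29.6 to 45.3). Among sites not called again that had RXR in the calcitriol lists alone, the share was 68 of 306 (22.2%; 17.7 to 27.3), so that within this 1 pattern the sites called again stood 37.4 points higher (28.4 to 45.7). Where RXR was present under both treatments, a match was found at 34 of 155 sites called again (21.9%) against 2.71% of the sites not called again in differentiated cells, and at 29 of 144 (20.1%) against 3.11% in undifferentiated cells.

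**Figure D3:**
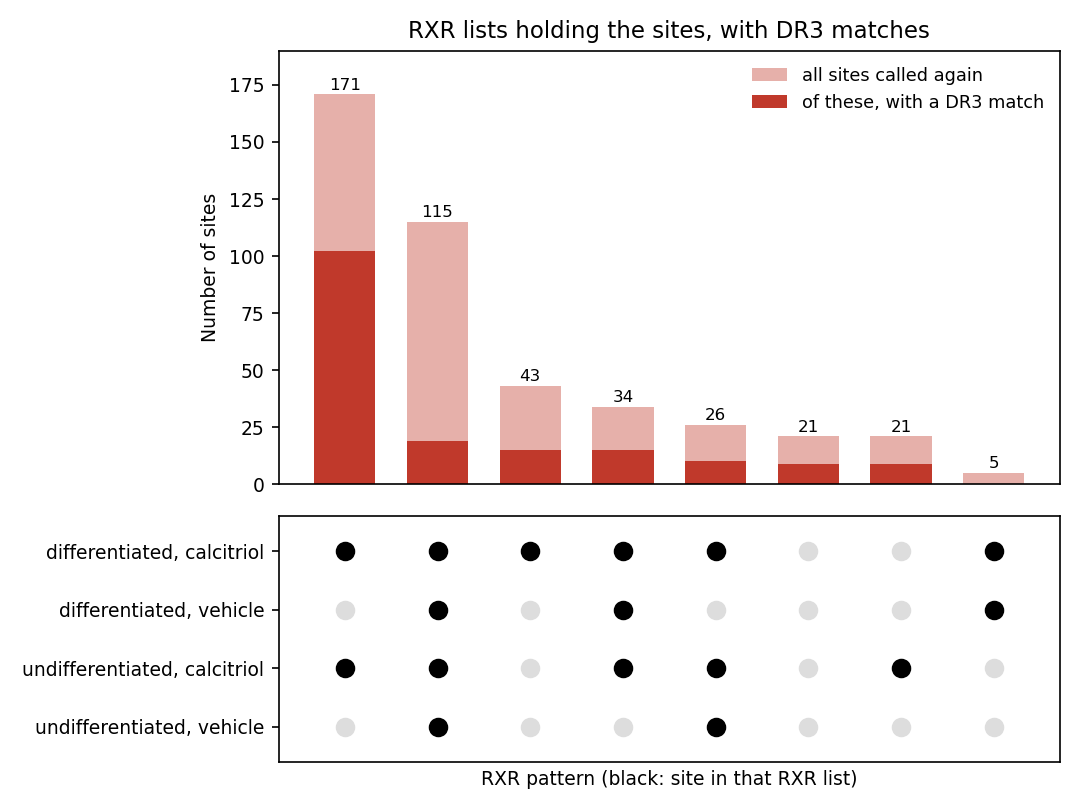
Number of sites called again (vertical axis) for each pattern of RXR calls held by at least 5 sites, with the part that has a DR3 match in dark red; black dots below mark the RXR lists that hold the sites. The 171 sites with RXR in the calcitriol lists alone have a DR3 match in 102 cases, and the 115 sites in all 4 lists in 19.

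The sites of the second pattern were the ones most often shared with the other factors. Of the 115 sites with RXR in all 4 lists, 87 (75.7%; 66.8 to 83.2) overlapped RUNX2 in differentiated cells and 99 (86.1%; 78.4 to 91.8) in undifferentiated cells. Of the 171 sites with RXR in the calcitriol lists alone, 30 (17.5%; 12.2 to 24.1) overlapped RUNX2 in differentiated cells and 60 (35.1%; 28.0 to 42.7) in undifferentiated cells. C/EBPβ showed the same order, at 63.5% (54.0 to 72.3) against 31.0% (24.2 to 38.5) in differentiated cells and 72.2% (63.0 to 80.1) against 45.6% (38.0 to 53.4) in undifferentiated cells. H3K9ac, an acetylation found at active enhancers and gene starts, covered 96.5% (91.3 to 99.0) of the 115 sites against 70.2% (62.7 to 76.9) of the 171 in differentiated cells, and 80.9% against 51.5% in undifferentiated cells. None of these pairs of intervals overlap.

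Over all 442 sites, C/EBPβ was present at 185 (41.9%; 37.2 to 46.6) in differentiated cells and at 231 (52.3%; 47.5 to 57.0) in undifferentiated cells. Both shares were above those of the sites not called again, 32.8% and 44.9%, by 9.02 points (4.35 to 13.8) and 7.34 points (2.51 to 12.1). With an overlap of more than 100 bp the difference in undifferentiated cells was 4.19 points, with an interval that includes 0 (-0.362 to 8.94). RUNX2 was present at 170 sites (38.5%; 33.9 to 43.2) in differentiated cells and at 210 (47.5%; 42.8 to 52.3) in undifferentiated cells. In undifferentiated cells this was below the 55.2% of the sites not called again (-7.72 points, -12.5 to -2.89), and in differentiated cells the difference from their 34.9% had an interval that includes 0 (3.55 points, -1.04 to 8.33). RUNX2 in differentiated cells but not in undifferentiated cells was found at 36 of the 442 sites (8.14%; 5.77 to 11.1) and at 2.98% (2.56 to 3.45) of those not called again. Neither factor was called at 192 sites (43.4%) in differentiated cells and at 147 (33.3%) in undifferentiated cells. The lists themselves differed in length between the states. RUNX2 had 7919 regions in differentiated cells and 12012 in undifferentiated cells, and C/EBPβ had 16557 and 17950.

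RXR without either of these factors was more frequent at the sites called again. It was found at 156 sites (35.3%; 30.8 to 40.0) in differentiated cells and at 106 (24.0%; 20.1 to 28.2) in undifferentiated cells, against 14.1% and 11.2% of the sites not called again. Counted over the 8 lists of RXR, C/EBPβ and RUNX2, 49 of the 442 sites (11.1%) were in all 8 and 17 (3.85%) in none, against 8.11% and 16.0% of the sites not called again. A DR3 match was present at 6 of those 49 sites and at 8 of those 17.

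Sites with a DR3 match also differed between the sets in what else was there. Among the 179 such sites that were called again, RXR with calcitriol was present at 89.9% (84.6 to 93.9) in differentiated cells and at 86.6% (80.7 to 91.2) in undifferentiated cells, against 23.0% and 38.6% of the 829 such sites not called again. C/EBPβ was present at 34.1% and RUNX2 at 22.9% in differentiated cells, against 11.1% and 6.76% of the 829. In undifferentiated cells C/EBPβ was present at 45.3% and RUNX2 at 39.1%, against 19.7% and 14.8% of the 829, which are differences of 25.6 points (17.9 to 33.3) and 24.3 points (17.0 to 31.9). H3K4me1, the mark of primed and active enhancers, was called at 97.2% of the 179 in differentiated cells against 84.8% of the 829, a difference of 12.4 points (8.16 to 15.5). Without a DR3 match, RXR with calcitriol was at 89.4% of 263 sites called again against 57.4% of 4943 others in differentiated cells, and at 81.7% against 62.8% in undifferentiated cells. There C/EBPβ and RUNX2 differed by 10.7 and 9.42 points in differentiated cells. In undifferentiated cells they differed by 7.87 points (1.67 to 13.9) and -8.77 points (-15.0 to -2.68). H3K4me1 in differentiated cells differed by 0.700 points (-1.48 to 1.56).

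The centres of the overlapping factor regions lay close to those of VDR. With calcitriol the median distance to the RXR centre was 28 bp in differentiated cells, over 396 sites, and 24 bp in undifferentiated cells, over 370. It was 50 bp and 42 bp for RUNX2, and 60 bp and 66 bp for C/EBPβ, in differentiated and undifferentiated cells in that order. The VDR region of differentiated cells itself lay a median of 34 bp from that of undifferentiated cells.

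The histone marks of undifferentiated cells covered similar shares of the sites called again and of the others. There H4K5ac covered 98.0%, H3K4me1 97.5%, H3K9ac 55.7%, H3K36me3 29.6% and H3K4me3 14.9% of the 442 sites, and each difference from the sites not called again was at most 1.01 points in size, with an interval that includes 0. In differentiated cells H4K5ac covered 96.6%, which is 2.39 points (0.187 to 3.86) above the sites not called again, and H3K4me1 98.2%, which is 1.95 points above them, with an interval that nears 0 (0.168 to 2.98) and includes it under 2 of the alternatives. There H3K9ac covered 73.3%, which is 1.85 points (-2.61 to 5.94) above the sites not called again and 7.62 points (2.99 to 11.9) above them when the lowest 25% of H3K9ac scores were left out. H3K36me3 covered 19.7% and H3K4me3 5.20%. H3K9ac was found in differentiated cells but not in undifferentiated cells at 84 of the 442 sites (95% interval 15.5 to 23.0%) and the reverse at 6 (1.36%). The H3K9ac list itself was longer in differentiated cells, with 22868 regions against 17189. At the sites not called again H3K9ac in differentiated cells only was counted at 17.5%, a difference of 1.54 points (-1.99 to 5.57). H3K4me3, a mark of gene starts, was called at 23 sites in differentiated cells and 66 in undifferentiated cells, from lists of 8994 and 6983 regions. In differentiated cells its share was below the 8.06% of the sites not called again by 2.85 points (-4.71 to -0.279). Without the sites within 1 kb of a start, H3K4me3 covered 1.23% of the sites, and the difference of -0.721 points had an interval that includes 0 (-1.53 to 0.925). For the H4K5ac antibody the sample labels and the protocol text name different histones, and the sample labels were followed here.

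Most of the sites lay far from gene starts. Only 34 of the 442 (7.69%; 5.39 to 10.6) had their centre within 1 kb of an annotated start of a protein-coding gene, 161 (36.4%) lay in introns, 5 in exons and 242 (54.8%) between genes. The median distance to the nearest start was 30002 bp, against 29834.5 bp for the sites not called again, and 88 sites (19.9%) lay more than 100 kb away. Sites listed under vehicle too and called again were placed otherwise, with 263 of 352 (74.7%; 69.8 to 79.2) within 1 kb of a start. Away from starts the DR3 share changed little: of the 408 sites beyond 1 kb, 41.7% held a match, against 14.6% of 5240 sites not called again.

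**Figure D4:**
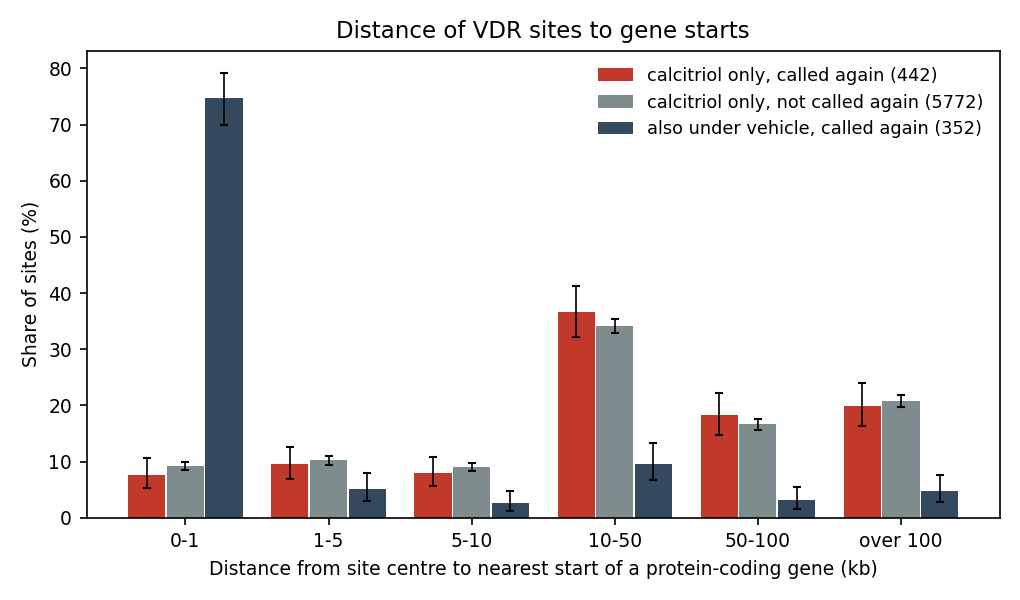
Share of VDR sites (%, vertical axis) by distance of the site's centre from the nearest start of a protein-coding gene (kb, horizontal axis), for calcitriol-only sites called again (red, 442), calcitriol-only sites not called again (grey, 5772) and sites also listed under vehicle and called again (blue, 352); whiskers are exact 95% intervals for counting error. The intervals of the red and grey bars overlap in every distance class, while 74.7% of the blue sites are within 1 kb of a start.

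A centre within 100 kb of a start was taken to place a site near a gene, and by this measure 945 of 22208 protein-coding genes, or 4.26%, had at least 1 of the 442 sites nearby. For the sites not called again the share was 32.5%. Nearness does not show that a site acts on a gene, a site counts for every gene in its reach, and genes with long or crowded surroundings are counted more often. Of 31 genes of vitamin D metabolism and response, 5 had one, namely Vdr, Slc8a1, Spp1, Lrp5 and Mmp13 (16.1%), and 24 had a site not called again. Of 24 bone matrix and mineralization genes 3 had one (Spp1, Mepe and Sparc), of 19 osteoblast transcription factor genes 2 (Fosl2 and Runx1), of 24 Wnt pathway genes 4 (Lrp5, Lrp6, Sfrp2 and Lgr6), of 26 BMP and TGF-β pathway genes 1 (Tgfbr3), and of 12 genes of osteoclast coupling 2 (Csf1 and Il34). In lists of other cell types, 1 of 10 adipocyte genes (Lep), 1 of 11 chondrocyte genes (Sox5), 1 of 10 muscle genes (Tnnt3) and 0 of 9 blood cell genes had one. Among 6 osteocyte genes there was 1 (Mepe), and of 12 housekeeping genes 16.7% had one, Actb among them. The lists are small and overlap, and nothing particular to any of them is read from these counts.

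Several genes best known for their response to vitamin D in bone had none of the sites within reach. Cyp24a1, the enzyme that inactivates calcitriol, had 3 calcitriol-only sites within 100 kb in undifferentiated cells, and none was called again. Tnfsf11, which encodes the osteoclast-forming cytokine RANKL, had 5 such sites, and Bglap, which encodes osteocalcin, had 1. These 3 genes were picked out after their counts had been seen.

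The 19 genes named from the lists were served by 21 distinct sites. All 21 overlapped RXR in differentiated cells with calcitriol, and 17 did so in undifferentiated cells with calcitriol. Under vehicle 7 of the 21 overlapped RXR in differentiated cells and 7 in undifferentiated cells. H4K5ac and H3K4me1 covered all 21 in both states, and 8 held a DR3 match. Over all 442 sites the shares for RXR with calcitriol were 89.6% in differentiated cells and 83.7% in undifferentiated cells. Those under vehicle were 35.7% and 33.3%, and DR3 matches were at 40.5%. H4K5ac and H3K4me1 covered between 96.6% and 98.2% of the 442, so nothing particular to the 21 is read from these counts.

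Among vitamin D and matrix genes, Spp1, which encodes the mineral-binding matrix protein osteopontin, had 2 of the sites. The nearer, at chr5:104863874-104864074, was centred 163 bp upstream of the start and carried H3K4me3 in both states. It overlapped RXR with calcitriol and RUNX2 in both states, with no RXR under vehicle and no C/EBPβ. The farther, at chr5:104837019-104837219, lay 27018 bp upstream and was in all 8 lists of RXR, C/EBPβ and RUNX2. It is the same site that is counted for Mepe, which encodes a matrix phosphoglycoprotein made by osteocytes, 82771 bp from its start. The Sparc site shown above had RXR with calcitriol in both states, RUNX2 in undifferentiated cells only and no C/EBPβ. Vdr, the gene of the receptor itself, had a site in an intron at chr15:97709221-97709421, 17923 bp downstream of a start. It overlapped RXR with calcitriol in both states and under vehicle in undifferentiated cells, with C/EBPβ in undifferentiated cells only and without RUNX2.

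Mmp13, which encodes the matrix-degrading collagenase 3, had a site 10401 bp upstream of its start whose factor calls differed between the states. At this site, shown above with its DR3 match, RXR with calcitriol and RUNX2 were called in differentiated cells and neither in undifferentiated cells. Slc8a1, the gene of a sodium-calcium exchanger, had a site in an intron 97324 bp from a start that was in all 8 factor lists.

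In the Wnt pathway, the co-receptor genes Lrp5 and Lrp6 differed in position and company. The Lrp5 site lay in an intron, 19232 bp downstream of a start, and overlapped RXR with calcitriol in both states, under vehicle in differentiated cells only, and C/EBPβ in undifferentiated cells. The Lrp6 site lay 39900 bp upstream, nearer to the start of Mansc1, and of the 8 factor lists it was in that of RXR in differentiated cells with calcitriol alone. Sfrp2, which encodes a secreted modulator of Wnt signals, had a site 17247 bp downstream with RXR and without C/EBPβ or RUNX2. Lgr6, a receptor for R-spondins, had one 684 bp downstream of a start. Tgfbr3, the TGF-β co-receptor betaglycan, had 2 intronic sites, of which the one with a DR3 match had RXR with calcitriol in both states and neither C/EBPβ nor RUNX2, whereas the other had C/EBPβ and RUNX2 in both states and RXR in differentiated cells with calcitriol alone.

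Both genes for ligands of the receptor that drives macrophages and osteoclast precursors, Csf1 and Il34, had a site. The Il34 site was centred 2886 bp upstream of the start. It overlapped RXR in all 4 lists, RUNX2 in both states and C/EBPβ in undifferentiated cells only. The Csf1 site lay 44388 bp downstream, nearer to the start of Ahcyl1, and overlapped RXR with calcitriol in both states, never under vehicle, with C/EBPβ and RUNX2 in both states. Among transcription factor genes, Runx1, a relative of Runx2, had an intronic site. This site overlapped RXR in all 4 lists, RUNX2 in both states and C/EBPβ in differentiated cells only. Fosl2, which encodes the AP-1 subunit Fra-2, had sites on both sides of it at 55655 bp and 57258 bp, nearest to the starts of Plb1 and Bre. Of the sites near genes of other cell types, that of Lep, the leptin gene, had RXR with calcitriol and C/EBPβ in both states, and that of Sox5, a chondrocyte transcription factor, had RXR with calcitriol and C/EBPβ in differentiated cells alone. The housekeeping gene Actb had a site 3187 bp upstream of its start with RXR with calcitriol in both states, none under vehicle, and RUNX2 in undifferentiated cells.

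**Figure D5:**
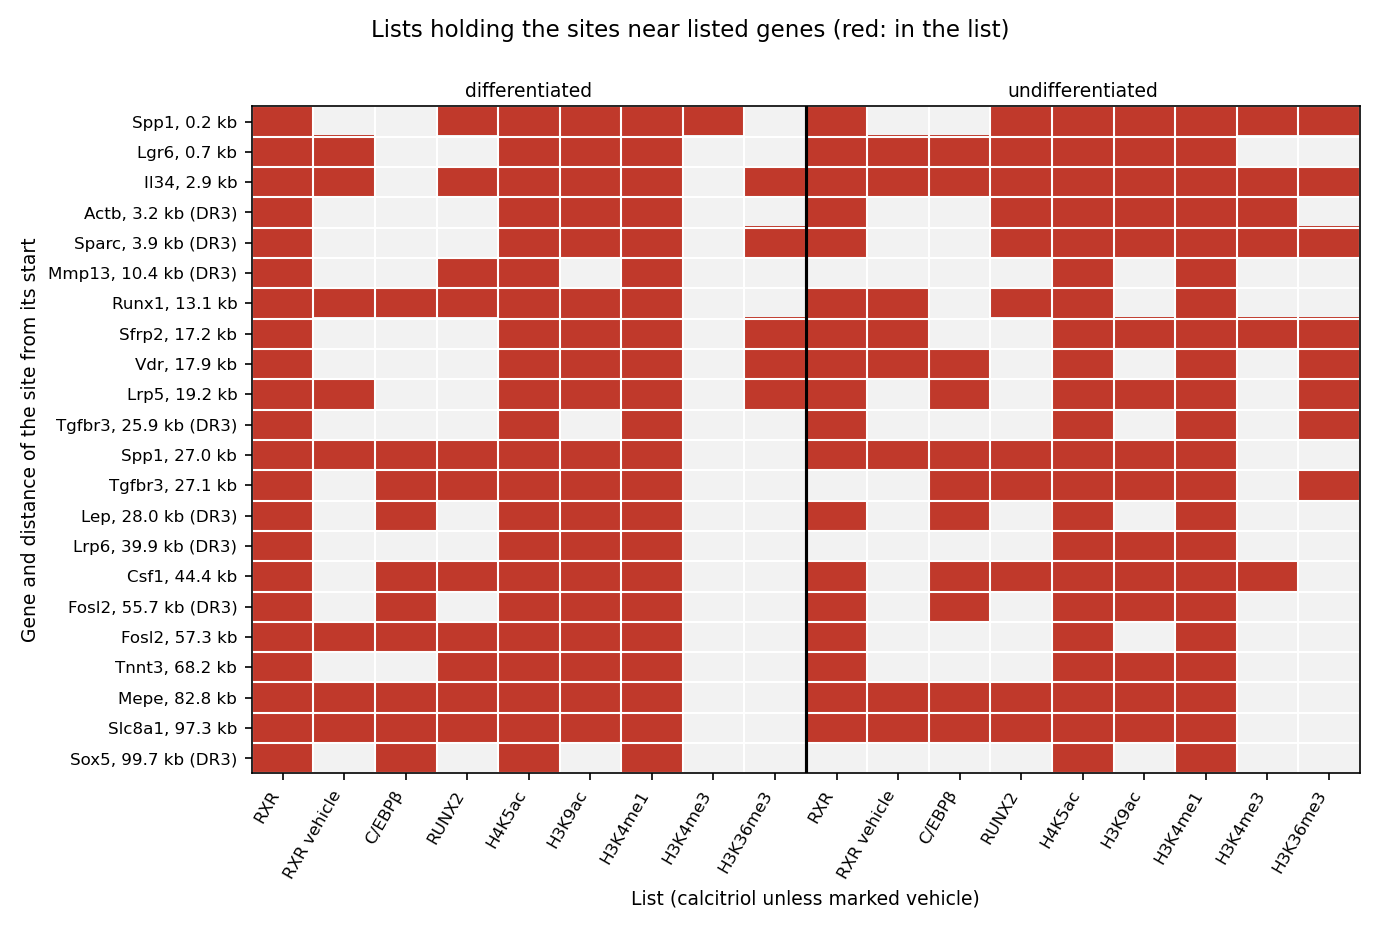
Lists (columns; calcitriol unless marked vehicle, with differentiated cells on the left) that hold each site near a gene named from the lists (rows, ordered by distance in kb from the gene's start); red means that the site is in the list, and DR3 marks a match. The column of RXR in differentiated cells with calcitriol is filled in every row, and that list holds 89.6% of all 442 sites. The site counted for Mepe is the same as the farther one of Spp1.

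Some genes were the nearest start of several sites. Med13l and Zfp281, a zinc finger transcription factor of stem cells, were the nearest start of 4 sites each. The 4 sites next to Zfp281 lay within 42475 bp, 58341 to 100615 bp downstream of its start, and had C/EBPβ and RUNX2 in both states; RXR was in all 4 lists at 3 of them and was missing under vehicle in undifferentiated cells at the remaining 1, which is also the 1 with a DR3 match. Of the 4 sites upstream of Med13l, the farthest, shown above, had the exact DR3 and RXR with calcitriol alone, and the other 3 had RXR in all 4 lists and no DR3 match. Bre, Cald1, Gpc6, Fgfr2 and N6amt1 were the nearest start of 3 sites each. Cald1 encodes caldesmon, an actin-binding protein, and 2 of its sites were in all 8 factor lists. Gpc6 was different, since its 3 intronic sites had no C/EBPβ or RUNX2 in either state, and the one with the exact DR3 was in no RXR list. Fgfr2 is a fibroblast growth factor receptor needed for skeletal growth, and its 3 sites lay from 57146 to 184186 bp away, 1 of them in an intron. Sulf2, an enzyme that trims heparan sulfate, had 2 sites, both with a DR3 match and with RXR in all 4 lists. Htra3, a secreted serine protease, had 2 sites with centres about 1 kb apart, of which the one with a DR3 match had RXR with calcitriol alone and the other had RXR in all 4 lists. Together, 27 groups of neighbours at most 50 kb apart took in 58 of the 442 sites (13.1%). The same count was not made for the sites not called again, so whether this share is high or low for VDR sites is not shown here.

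The membership of the set depends on calls. The smallest overlaps that admitted a site were 31, 36 and 37 bp, and the median was 167 bp of 201. Just outside, the nearest differentiated regions lay 21, 23 and 75 bp from a site not called again, and 18 such sites had one less than 1 region width away. On the vehicle side, the closest vehicle region to a site of the set lay 100 bp away, and among sites set aside because of a vehicle region the smallest overlap was 80 bp. None of the 442 sites overlapped a VDR region of differentiated cells under vehicle, a list of 274 regions (95% interval up to 0.831%). Of the sites not called again 1 of 5772 did (0.0173%), so this is not particular to the set. Of the sites listed under vehicle too and called again, 216 of 352 did (61.4%). Seen from the other list, the 442 differentiated regions that overlap the set are 50.7% of the 871 regions of that list, and 71.6% of the 617 that were absent from the differentiated vehicle list.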

How the data were processed

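The submitters' processing notes name Bowtie, HOMER and build mm9; for versions, settings and depths the sources used here give nothing. Each deposited file gives regions with a name and a score. The score deposited by the authors is 0 throughout the factor lists, whose regions are 201 bp wide, and has no stated meaning in the histone lists, where it only served to leave out the lowest 25% in 1 alternative. Region names count the merged peaks, so each list was taken to hold regions shared by replicates of the authors.

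Regions on chromosomes 1 to 19 and X were compared by overlap of at least 1 bp (Python 3.11.15, pandas 2.3.3) and placed on the NCBIM37 sequence (mm9) with GENCODE vM1 genes. Motifs were searched with pysam 0.24.0. Shares carry exact Clopper-Pearson 95% intervals and differences Newcombe 95% intervals (scipy 1.17.1), for counting error only; no p-value is given, because regions are not replicates. The overlap and motif steps were tested on simulated data.

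The sites, gene lists and alternatives were chosen with earlier results of these data known. Named genes are those of 12 lists (184 genes, 183 of them annotated) with a site within 100 kb, and the 10 that are the nearest start of most sites (at least 2; ties by the shortest distance); 1 listed gene is not reported here. Of the 12 sequences the rule selects, 8 are printed; the sites near Fosl2, Sox5, Zfp281 and Fgfr2 are not.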

Additional observations from a re-analysis of the deposited data

How the results depend on the processing

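The number of sites is 428 when an overlap of more than 100 bp with the differentiated list is asked for and 438 when no vehicle region may lie within 1 kb. Leaving out regions not merged from at least 2 peaks could change nothing, since every region was merged. Leaving out sites in the differentiated vehicle list removed none of the 442 sites and only 1 of the 5772 not called again. The 80 values recomputed in these ways are not counted. Across 44 results and the 149 other values, 120 lay within the interval of the main value (counts within 1.5 times) and 29 did not. Of 72 recomputed differences, 2 changed sign, both for H3K9ac in undifferentiated cells (0.721 points away from starts and 0.710 points without the lowest 25% of scores, against -0.685 points), with intervals that include 0. In 5 of 33 the interval came to include 0: C/EBPβ in undifferentiated cells at more than 100 bp (4.19 points), and, in differentiated cells, H3K4me1 with a region within 1 kb (1.55 points) or without the lowest scores (1.87 points) and H3K4me3 with a region within 1 kb (-2.62 points) or away from starts (-0.721 points). In 4 cases it ceased to include 0: RXR under vehicle in differentiated cells with a region within 1 kb (6.16 points) or away from starts (5.36 points), H3K9ac in differentiated cells without the lowest scores, and the share within 500 bp of a start (-2.98 points).
With a region within 1 kb of the centre in place of an overlap, shares of the sites were 41.6% for RXR under vehicle, 53.8% for C/EBPβ, 43.9% for RUNX2 and 25.8% for H3K36me3 in differentiated cells, and 38.2%, 62.4%, 53.4% and 39.4% in undifferentiated cells. The difference from sites not called again was then 33.5 points for RXR with calcitriol and -0.104 points for VDR under vehicle, both in differentiated cells.
With an overlap of more than 100 bp, shares were 31.2% for RXR under vehicle, 85.5% for RXR with calcitriol, 31.7% for C/EBPβ and 32.6% for RUNX2 in differentiated cells, and 37.3% for C/EBPβ and 40.7% for RUNX2 in undifferentiated cells.
Without the lowest 25% of scores, H3K9ac covered 46.2% of the sites in undifferentiated cells, and its difference in differentiated cells was 7.62 points. Away from starts, H3K4me3 covered 1.23% in differentiated and 11.3% in undifferentiated cells.
DR3 matches without mismatch were at 9.28% of the sites (difference 6.57 points), and matches in a 100 bp window at 23.8% (14.6 points). The share near a start was 4.30% within 500 bp and 11.1% within 2 kb. Genes with a site numbered 501 within 50 kb, 130 within 10 kb and 394 by nearest start. Stricter alternatives count fewer sites or regions by construction; no other cause was tested.
No paired analysis was possible because each group has 1 list and no replicate numbers. A site missing from a list may have been bound below the calling threshold, and depth is unknown.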

Other observations

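By chromosome, the sites were counted at 49 of the 442 (11.1%) on chromosome 5 against 7.00% of the 5772, at 12.2% on chromosome 1 against 9.55%, at 4.30% on chromosome 14 against 2.56%, at 4.07% on chromosome 12 against 2.67% and at 2.71% on chromosome 19 against 4.37%. These chromosomes were picked out after the counts had been seen, and no test was made.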
